A study of Mus musculus with 6 samples.

Results

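The liver comparison set 1 library from Atxn2 knockout mice against 1 library from wild-type mice. These are 2 of the 6 libraries of the series, which also covers cerebellum and hippocampus and was designed to look for expression differences shared by the 3 tissues. Its members are all gene records of the deposited liver table, summed per gene symbol, where tags that matched several genes equally stayed together as a joint feature. There were 17508 features with at least 1 sense tag in liver, 2394 of them joint, among 24654 over the whole series. The text is about 6536 features (291 joint) whose mean level over the 2 pools was at least 10 tags per 1000000 gene tags after TMM scaling (CPM), and above all about 758 of them that belong to 36 lists of lipid, glucose, amino acid, secretory and stress genes.

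Both groups were C57BL/6 mice labelled 6 months old. The knockout was homozygous for loss of Atxn2 and each library was made from pooled liver RNA of 3 animals. The protocol text names midbrain instead of hippocampus and ages of 6, 12 and 24 weeks, which differ from the sample labels used for the groups. How the allele was made and which part of the gene it removes are not given in the sources used here. With 1 pool per genotype no difference below has a replicate check, and no test was made. The 95% intervals are exact (Clopper-Pearson) and cover counting error only.

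Ataxin-2 binds mRNA and poly(A)-binding protein, sits on polyribosomes and gathers in stress granules. The liver makes fatty acids from sugar and packs them as triglyceride into droplets and lipoproteins when fed, and burns fatty acids to ketone bodies in mitochondria and peroxisomes when fasted. It also breaks down amino acids, clears ammonia as urea, makes bile acids from cholesterol, and secretes most plasma proteins through the endoplasmic reticulum.

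The targeted gene was checked in both pools. Atxn2, on chromosome 5 from 121711609 to 121814950 (GRCm38.p6), had 2 tags in the knockout pool and 115 in the wild-type pool, a log2 ratio of -5.11 (-8.17 to -3.22). Hepatocyte markers matched the tissue label, with all 10 of them at a mean of at least 10 CPM. Albumin (Alb) stood at 45897 CPM in knockout and 41963 CPM in wild type.

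Sex cannot be told apart from genotype in this comparison. The wild-type pool had 87 tags of Xist, the RNA that silences an X chromosome in female cells, and the knockout pool had 0. The counting interval of its log2 ratio ended at -3.79. The Y-linked genes were present in both pools, with 81 and 101 tags of Ddx3y and 64 and 51 of Eif2s3y in knockout and wild type. After scaling, Eif2s3y was past 2-fold higher in the knockout (log2 1.06, 0.51 to 1.62). Ddx3y had an interval that included equality (log2 0.42, -0.02 to 0.85). Of 28 measured features in a list of genes known to be higher in female liver, 22 were at least 1.5-fold lower in the knockout and none was as much higher. Over all members of that list with tags, also those under the minimum level, the summed level was 1263 CPM against 4955 CPM. Of 35 measured male-biased features, 13 were at least 1.5-fold higher and 3 as much lower. How much of any difference below goes with sex was not tested, and members that stand in the sex-biased lists are named as such.

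Other features of the libraries moved with genotype too. The knockout library held 1774523 gene tags and the wild-type library 2727523, which is 68.4% and 68.2% of all tags. All 8 measured red blood cell features had a ratio above 0. Over all members of that list with tags, summed levels were 2710 CPM against 1503 CPM. All 6 measured stellate cell and fibroblast features were below 0, with a median of -0.35. Ribosomal RNA precursor tags (Rn18s/Rn45s) stood at 1256 CPM against 5256 CPM. The median log2 ratio ran from -0.08 over 3223 features of 10 to 30 CPM to 0.20 over 131 features of 1000 CPM or more, so abundant transcripts lay slightly higher in the knockout. With features split into 5 equal bins, it ran from 0.12 for the shortest transcripts to -0.18 for the longest, and from -0.17 for the lowest GC content to 0.06 for the highest. Since tissue RNA was measured, fewer cells of a type and less RNA per cell cannot be told apart. The part of these quantities in the results was not tested.

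At a limit of 2-fold, with a counting interval that excluded equality, 73 features (1.12% of 6536) were higher in knockout liver and 173 (2.65%) were lower. At 1.5-fold, 295 (4.51%) were higher and 464 (7.1%) lower, and these shares are the background for the lists below. This balance also turns with the scaling, with 168 higher and 721 lower under library totals and 493 higher and 310 lower under upper-quartile factors. The median over all features was 0.00, with 3280 features above 0 and 3256 below. The split depends on the scaling: higher features made up 29.7% of those past 2-fold with TMM, 18% with library totals (55 higher, 250 lower) and 43.9% with upper-quartile factors (107 higher, 137 lower). Library totals move every log2 ratio by -0.12 and upper-quartile factors by 0.10, so these 2 scalings bound the other 4. Among the 758 listed features, 20 were 2-fold higher (2.64%) and 25 lower (3.3%), and 16 and 21 of these passed under all 6 scalings. At 1.5-fold 58 were higher (7.65%) and 66 lower (8.71%), of which 38 and 51 passed under all 6. The sex-biased lists hold 3 of the 20 (Bcl6, Cyp4a12a and Mup21) and 3 of the 25 (Abcd2, Acot3 and Cyp4a14).

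**Figure D1:**
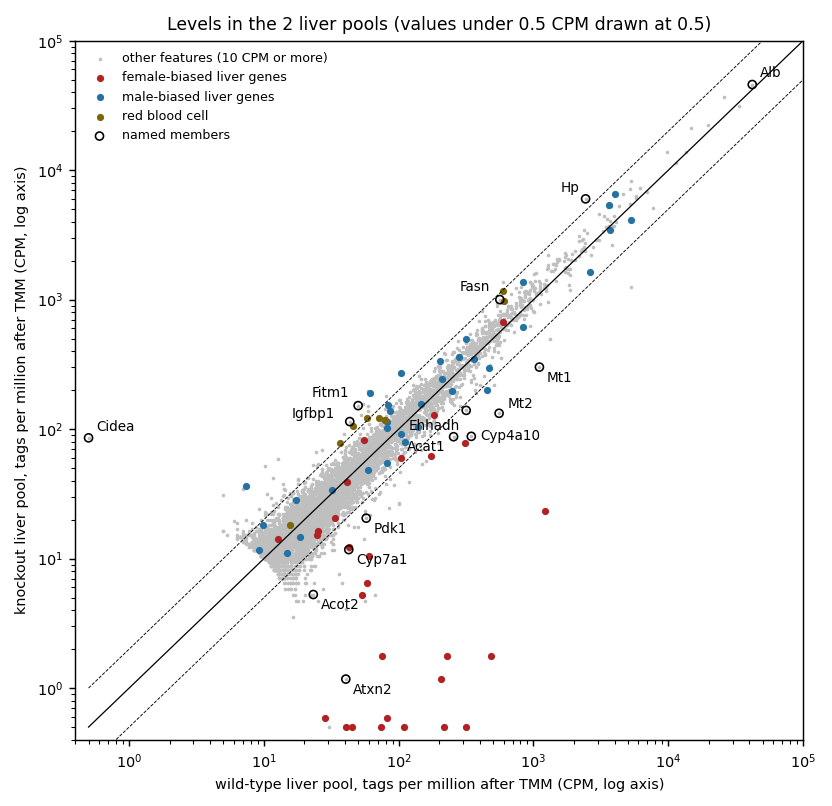
Level of each feature in the wild-type pool (horizontal) and the knockout pool (vertical), in CPM on log axes, with the line of equality and dashed lines at 2-fold. Values too low for the axes are drawn at their edge. Of the 28 female-biased features (red) 19 lie at least 2-fold below equality, Atxn2 lies at 1.17 against 40.5 CPM, and Cidea is the point farthest above equality, at 85.6 CPM in knockout.

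Genes of fat storage leaned higher in the knockout pool. Of 15 measured genes of the lipid droplet and of lipolysis, 14 had a log2 ratio above 0, with a median of 0.32 beside 0.00 over all features and a range of 0.21 to 0.43 over the 6 scalings. At the 1.5-fold limit 2 of the 15 were higher (13.3%, against 4.51% of all features) and none lower.

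Cidea, a droplet protein that promotes fusion of lipid droplets and is best known from brown fat, had 146 tags in knockout liver and 1 in wild-type liver. The levels were 85.6 and 0.352 CPM, and the log2 ratio of 7.93 (5.42 to 13.24) was the highest of any measured feature. In the 2 brain tissues the pools had similar numbers of Cidea tags, 49 and 38 in cerebellum and 36 and 39 in hippocampus. Its relative Cidec, named after its values were seen, was under the minimum level with 22 tags in knockout and 3 in wild type. The liver form Cideb was at 603 CPM against 418 CPM (log2 0.53, 0.41 to 0.65).

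Fitm1, which helps to partition triglyceride into droplets, was at 152 CPM in knockout and 50.0 CPM in wild type (log2 1.60, 1.30 to 1.91). The coat protein Plin2 was at 607 against 489 CPM, and Mgll, the lipase that frees the last fatty acid of a triglyceride, at 277 against 203 CPM. Lysosomal Lipa was the only measured member below 0, at log2 -0.25 (-0.49 to -0.01). Of the other adipocyte markers, Car3 was at 1238 against 744 CPM and Fabp4 at 13.5 against 8.45 CPM (log2 0.67, -0.22 to 1.56). Cfd, under the minimum level, had 10 and 11 tags (log2 0.60, -0.79 to 1.97). All 3 measured adipocyte features (Cidea, Car3 and Fabp4) lay above 0, and their part in the droplet list was not tested. Over all members of the adipocyte list with tags, also those under the minimum level, summed levels were 1344 against 757 CPM. Adipoq, which defines white and brown fat cells, had 1 and 0 tags, and Plin1, Lep and Ucp1 had none in either pool.

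Triglyceride assembly gave few members with enough tags, 7 of 14. Gpam, the mitochondrial acyltransferase of the opening step, had 32 tags in knockout and 18 in wild type (log2 1.57, 0.69 to 2.49). Dgat2, which adds the last acyl chain, was at 295 against 234 CPM (log2 0.34). Lpin1, a phosphatidate phosphatase that also acts with nuclear receptors, was lower, at 59.2 against 95.8 CPM (log2 -0.69, -1.04 to -0.36).

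Fatty acid synthesis leaned to the higher side, with 15 of 21 genes above 0 and a median of 0.15 (0.04 to 0.26 over scalings). Fasn, the fatty acid synthase itself, was at 1002 CPM in knockout and 562 CPM in wild type (log2 0.83, 0.73 to 0.93). Thrsp, a lipogenic nuclear protein, was at 690 against 397 CPM, and Hsd17b12, of chain elongation, at 69.2 against 39.8 CPM. Srebf1, which encodes the main transcription factor of this pathway, was at 163 against 115 CPM. The desaturase Scd1, the most abundant member, differed little, with 4441 against 3989 CPM (log2 0.15). Acaca, the cytosolic carboxylase, had an interval that included equality (log2 0.12, -0.23 to 0.47). Acacb, the mitochondrial carboxylase whose malonyl-CoA restrains fatty acid entry, was lower, at 76.3 against 131 CPM (log2 -0.78, -1.08 to -0.48). At 1.5-fold, 4 members were higher (19.0%, against 4.51% of all features) and 1 lower (4.76%, against 7.1%). Among the higher genes, Elovl3 (log2 0.65), is in the male-biased list and passed under 4 of the 6 scalings.

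Mitochondrial fatty acid oxidation lay the other way. Of 26 measured genes 19 were below 0, the median was -0.36 (-0.47 to -0.25 over scalings), and at 1.5-fold 6 were lower (23.1%, against 7.1% of all features) and none higher. Acot2, a thioesterase of the matrix, had 9 tags in knockout and 66 in wild type (log2 -2.14, -3.33 to -1.13). Acads, the short-chain dehydrogenase, was at 151 against 287 CPM, and Etfdh, which passes its electrons to the respiratory chain, at 75.1 against 143 CPM. Both had a log2 ratio of -0.93.

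The other steps varied. Acad9, Hadhb and Cpt2, picked after their values were seen, completed the 6 lower members, with log2 ratios of -0.91, -0.75 and -0.65. Cpt1a, the regulated entry step, was at 157 against 144 CPM, and its interval included equality (-0.11 to 0.35). Acaa2, the last thiolase, was above 0 at 568 against 423 CPM (log2 0.43, 0.30 to 0.55).

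The peroxisomal and omega oxidation list held members far below 0, near 0 and far above 0. Its median over 29 features was 0.01, with 7 at least 1.5-fold lower (24.1%, against 7.1% of all features) and 2 as much higher (6.90%, against 4.51%). Past 2-fold lower were Acot1, Acot3, Abcd2, Cyp4a10, Cyp4a14 and Ehhadh, and past 2-fold higher was Cyp4a12a.

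Cyp4a10 and Cyp4a14, omega-hydroxylases and textbook targets of the fatty acid receptor PPAR-alpha, are neighbours on chromosome 4 (115518287 to 115533649 and 115486200 to 115496158, GRCm38.p6). Cyp4a10 had 150 tags in knockout and 981 in wild type (log2 -1.97, -2.23 to -1.72). Cyp4a14, which is in the female-biased list, was at 78.0 against 309 CPM (log2 -1.99, -2.26 to -1.72). Cyp4a12a, a male-biased gene of the same family and chromosome (115299046 to 115332815), lay on the other side of 0, at 192 against 60.9 CPM (log2 1.65, 1.38 to 1.93).

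Of 4 acyl-CoA thioesterase genes side by side on chromosome 12, 3 were past 2-fold lower. Acot1 (84009502 to 84017670) had 24 tags in knockout and 158 in wild type, and Acot3 (84052144 to 84060400), in the female-biased list, had 11 and 166. Their log2 ratios were -1.98 (-2.67 to -1.36) and -3.18 (-4.21 to -2.30). Acot2, given above, lies beside them at 83987861 to 83993877. Acot4 (84037254 to 84044723), named after its values were seen, had 28 and 72 tags and an interval that included equality (log2 -0.63, -1.31 to 0.02). Abcd2, a peroxisomal fatty acid transporter and also female-biased, had 21 and 121 tags.

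Ehhadh, the bifunctional enzyme of peroxisomal oxidation, was at 140 against 317 CPM (log2 -1.18, -1.39 to -0.97) and is in neither sex list. Abundant members differed little: Phyh, which starts the breakdown of branched phytanic acid, was at 1231 against 1193 CPM and the thiolase Acaa1b at 1170 against 1235 CPM. Ppara itself had a ratio whose interval included equality (log2 0.20, -0.07 to 0.46). Without the features of the sex lists, 23 members remained, of which 4 were 1.5-fold lower and none higher.

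**Figure D2:**
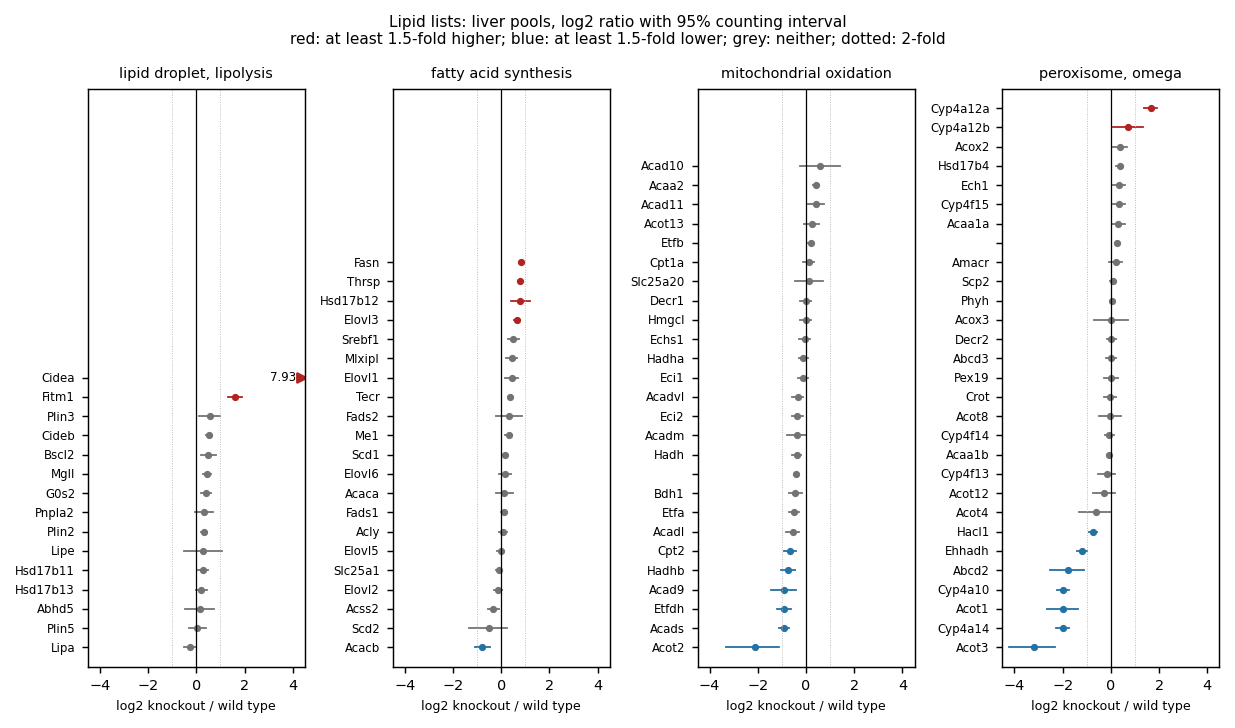
Log2 ratio of knockout over wild type for each measured gene of 4 lipid lists, with the 95% counting interval as a line, where red points were at least 1.5-fold higher and blue points at least 1.5-fold lower. The droplet list has 14 of 15 points above 0 (Cidea, at 7.93, is drawn as an arrow at the edge), while 19 of 26 points of mitochondrial oxidation lie below 0. A few points carry no label.

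Uptake and binding of fatty acids showed no common direction, with a median of -0.03 over 16 features. Fabp5, an epidermal-type binding protein, had 8 tags in knockout and 72 in wild type, and the joint feature Fabp5/Gm3601, which holds most of its tags, had 45 and 283 (log2 -1.92, -2.40 to -1.46). The liver binding protein Fabp1 was nearly equal, at 6820 against 7009 CPM. Acsl1, which activates long-chain fatty acids, was at 394 against 547 CPM (log2 -0.48).

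Few sterol genes passed 1.5-fold. In cholesterol synthesis the median over 20 genes was -0.13, with 2 lower at 1.5-fold (10.0%, against 7.1%) and 1 higher (5.0%, against 4.51%). Idi1 at 96.2 against 172 CPM and Sqle with 28 against 81 tags were at the low end. Tm7sf2 was at the high end with 75.7 against 46.5 CPM. Scarb1, the receptor for high-density lipoprotein, was at 121 against 72.2 CPM (log2 0.74, 0.46 to 1.03).

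Bile acid genes held a marked difference at the head of the pathway. Cyp7a1, the rate-limiting enzyme of bile acid synthesis (chromosome 4, 6265612 to 6275632), had 20 tags in knockout and 121 in wild type, 11.7 against 42.6 CPM (log2 -1.86, -2.62 to -1.17). Nr0b2, which encodes the repressor SHP that acts on Cyp7a1, was at 117 against 57.1 CPM (log2 1.04, 0.73 to 1.35), though it stayed past 2-fold under only 3 of the 6 scalings. The uptake transporter Slco1a4 had 26 and 92 tags (log2 -1.09). Cyp2c70, which makes muricholic acids in mice and is in the male-biased list, was at 297 against 469 CPM (log2 -0.66, -0.81 to -0.51). The median over all 21 features of the list was -0.08, and at 1.5-fold 3 were lower (14.3%, against 7.1%) and 1 higher (4.76%, against 4.51%).

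Lipoprotein genes leaned slightly higher in the knockout with TMM scaling. Apoe, the most abundant, was at 36488 against 26120 CPM (log2 0.48, 0.47 to 0.50) and Apoa4 at 292 against 198 CPM (log2 0.56). Apoa1 was at 11466 against 11335 CPM and Apob at 1002 against 828 CPM, and the median over 26 features was 0.10, which turned to -0.02 with library totals. Apoc2, the activator of lipoprotein lipase, was the only member past 1.5-fold, at 817 against 418 CPM (log2 0.97, 0.86 to 1.08).

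**Figure D3:**
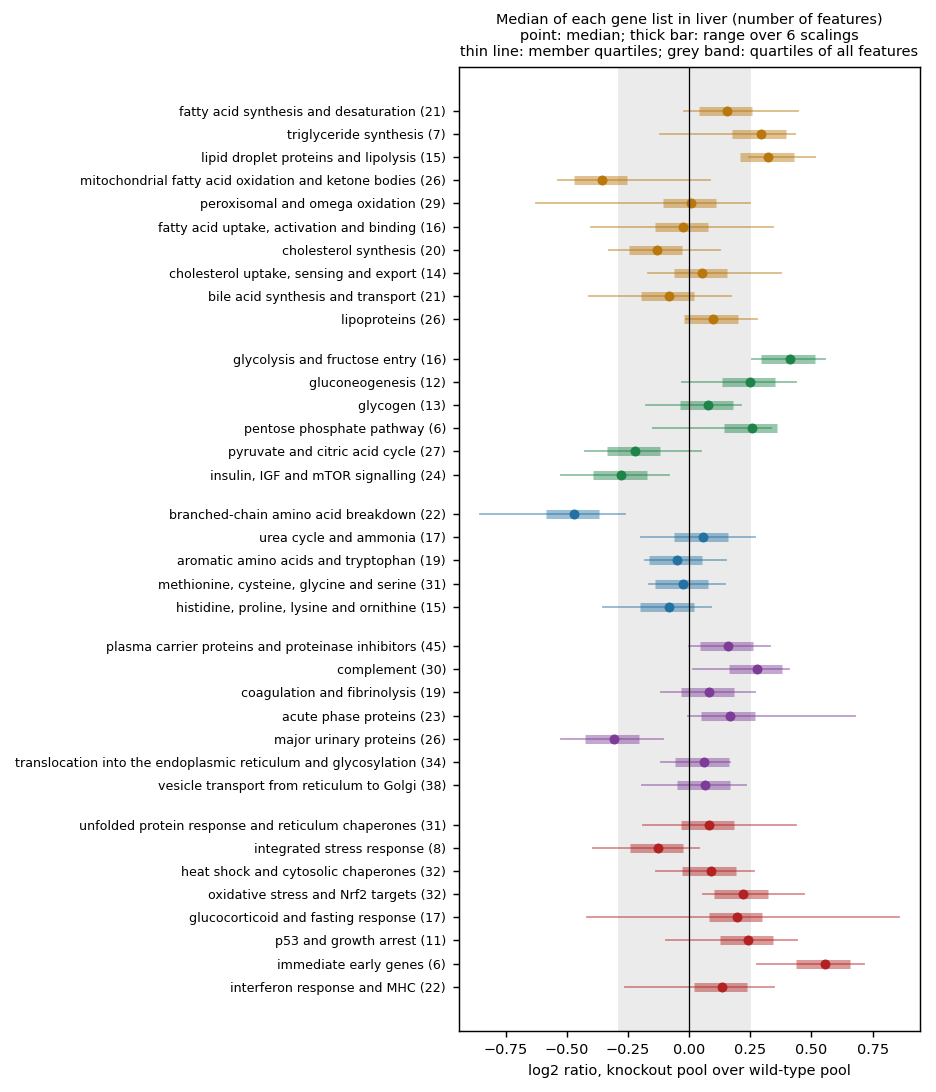
Median log2 ratio of each of the 36 lists, with the range over the 6 scalings as a thick bar and the quartiles of the members as a thin line, beside the quartiles of all 6536 features (grey band, -0.29 to 0.25). Glycolysis at 0.41 and immediate early genes at 0.55 (6 features) lie highest, and branched-chain amino acid breakdown at -0.47 lies lowest.

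Glycolysis and fructose entry leaned higher in the knockout, with 14 of 16 genes above 0 and a median of 0.41 (0.29 to 0.51 over scalings). At 1.5-fold, 3 were higher (18.8%, against 4.51%) and 1 lower (6.25%, against 7.1%). Besides Hk1, the higher genes were those of fructose: ketohexokinase (Khk) was at 538 CPM in knockout and 336 CPM in wild type (log2 0.68, 0.55 to 0.81), and triokinase (Dak) at 743 against 437 CPM (log2 0.76, 0.65 to 0.88).

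Among the glucose steps proper, Ldha was at 1305 against 983 CPM and liver pyruvate kinase (Pklr) at 52.2 against 35.6 CPM. Hk1, a hexokinase of other cell types, had only 24 and 18 tags (log2 1.15, 0.21 to 2.12). Aldoc was lower, at 31.7 against 51.4 CPM (log2 -0.70).

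Gluconeogenesis was mixed, with a median of 0.25 over 12 genes. Pck1, which makes phosphoenolpyruvate, was at 258 against 142 CPM (log2 0.86, 0.66 to 1.06). G6pc, which releases free glucose, was at 78.0 against 108 CPM (log2 -0.47, -0.77 to -0.17), so it lay on the other side of 0 from Pck1. Fbp1 was at 875 against 645 CPM and pyruvate carboxylase (Pcx) at 175 against 217 CPM. In glycogen metabolism no gene passed 1.5-fold, and the synthase Gys2 was at 79.8 against 58.1 CPM (log2 0.46, 0.12 to 0.79). Taldo1 was the only pentose phosphate gene past 1.5-fold, at 151 against 90.5 CPM.

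Pyruvate oxidation and the citric acid cycle leaned lower, with a median of -0.22 over 27 genes (-0.34 to -0.12 over scalings), 5 lower at 1.5-fold (18.5%, against 7.1%) and none higher. Pdk1, a kinase that turns pyruvate dehydrogenase off, had 35 tags in knockout and 163 in wild type (log2 -1.48, -2.05 to -0.95). Dld, the lipoamide dehydrogenase shared by the pyruvate, oxoglutarate and branched-chain complexes, had 70 and 245 (log2 -1.07, -1.48 to -0.68). Idh2, the NADP-dependent mitochondrial isocitrate dehydrogenase, was at 66.3 against 132 CPM (log2 -1.0, -1.31 to -0.69). Ogdh lay above 0, at 128 against 97.2 CPM.

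In insulin, IGF and mTOR signalling 18 of 24 genes were below 0, with a median of -0.28. Igfbp1, a secreted binding protein that insulin represses and fasting raises, was the highest of the list, at 114 CPM in knockout against 43.3 CPM in wild type (log2 1.40, 1.07 to 1.74). Igf1 was at 805 against 1005 CPM (log2 -0.32, -0.41 to -0.23). Its carrier subunit Igfals was at 69.8 against 120 CPM, and Igfbp2 at 154 against 255 CPM. The insulin receptor gene Insr had 44 and 102 tags with an interval from -1.02 to 0.05. Socs2, a feedback inhibitor that growth hormone induces, had 8 and 159 tags (log2 -3.58, -4.81 to -2.56). It was named after its values were seen.

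Branched-chain amino acid breakdown had the lowest median of the 36 lists, -0.47 over 22 genes (-0.59 to -0.37 over scalings, and -0.42 after a fit of GC content, length and abundance). Below 0 were 18 genes, and at 1.5-fold 8 were lower (36.4%, against 7.1% of all features) and 1 higher (4.55%, against 4.51%). The lower members covered the shared complex, the leucine branch, the isoleucine branch and the propionate end.

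Acat1, the mitochondrial acetoacetyl-CoA thiolase of isoleucine and ketone metabolism (chromosome 9, 53580522 to 53610350), was at 87.4 CPM in knockout and 255 CPM in wild type (log2 -1.55, -1.81 to -1.29). The 2 leucine enzymes Ivd and Mccc1 had 54 against 203 tags (log2 -1.17, -1.64 to -0.74) and 26 against 92 tags (log2 -1.09, -1.77 to -0.45). With Dld, given above, these 4 were past 2-fold, and Dld and Mccc1 held it under 5 of the 6 scalings.

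The remaining members past 1.5-fold were Dbt, Acadsb, Mccc2 and Mut, named after their values were seen, with log2 ratios of -0.89, -0.86, -0.84 and -0.75. Bckdha, a subunit of the committed dehydrogenase, was at 171 against 251 CPM (log2 -0.56, -0.76 to -0.36). Hsd17b10 of the isoleucine branch was the only gene past 1.5-fold higher, with 668 and 714 tags (log2 0.64, 0.49 to 0.79). In cerebellum 14 of the 22 genes were below 0 with a median of -0.11, and in hippocampus 15 with a median of -0.16. The 2 cerebellum pools had 144 and 147 tags of Acat1 and 90 and 89 of Ivd. Bckdha had 143 and 213 tags there (log2 -0.54, -0.86 to -0.23), Aldh6a1 had a log2 ratio of -0.52 (-0.90 to -0.15) and Dbt had 48 and 30 tags (log2 0.71, 0.03 to 1.42), and no other interval in that tissue excluded equality. The hippocampus pools had 127 and 144 tags of Acat1 (log2 -0.30, -0.65 to 0.06) and 61 and 73 of Ivd (log2 -0.37, -0.89 to 0.14). In hippocampus 2 of the 22 genes had an interval below 0 and 0 had one above. The difference between tissues was not tested.

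**Figure D4:**
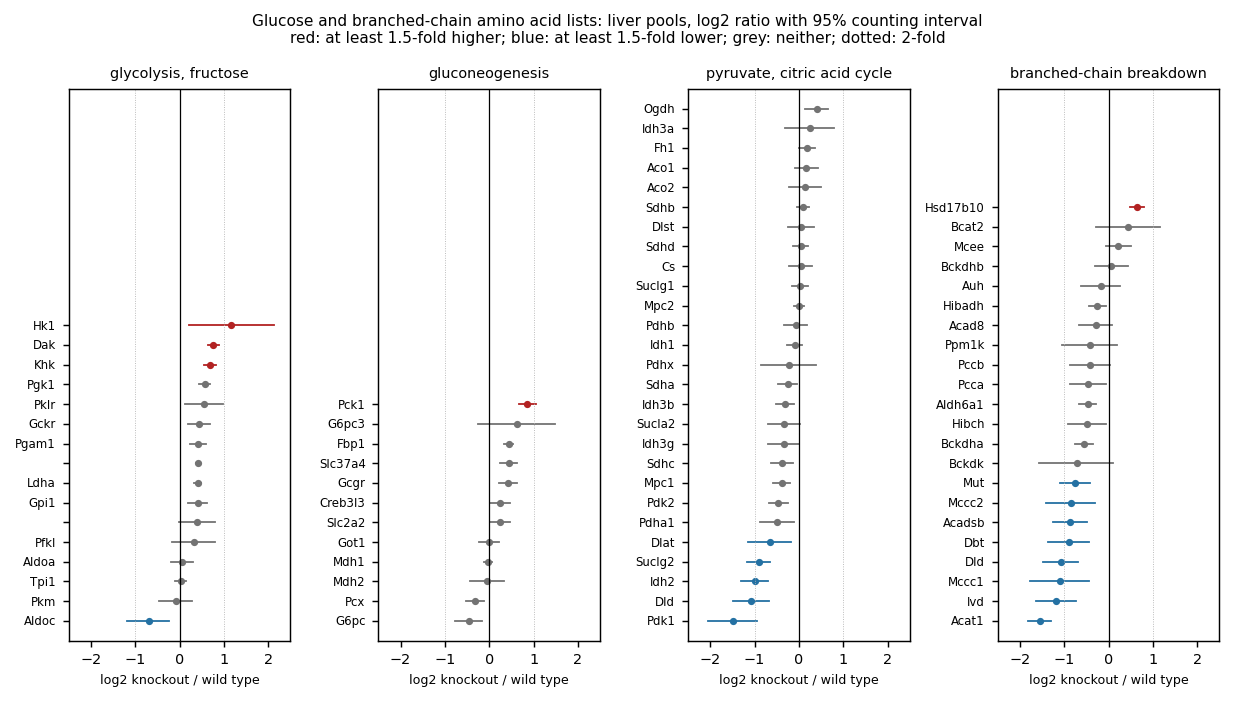
Log2 ratio with its 95% counting interval for each measured gene of glycolysis and fructose entry, gluconeogenesis, pyruvate and citric acid cycle, and branched-chain amino acid breakdown. Points of glycolysis lie mostly right of 0, and 18 of 22 points of branched-chain breakdown lie left of it, with Acat1 at -1.55. A few points carry no label.

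Other amino acid lists had medians near 0. In the urea cycle list (17 genes, median 0.06), Ass1 was at 3394 against 3267 CPM and Arg1 at 1161 against 1015 CPM. Otc, which makes citrulline, was lower at 311 against 473 CPM (log2 -0.60, -0.75 to -0.46). Gls2, the liver glutaminase, was lower too, at 202 against 365 CPM (log2 -0.85, -1.03 to -0.67). Rhbg, an ammonia transporter of perivenous hepatocytes, had 91 against 72 tags (log2 1.07, 0.61 to 1.54), past 2-fold under 4 of the 6 scalings.

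In the aromatic list (19 genes, median -0.05) Ccbl2, a kynurenine aminotransferase, had 92 tags in knockout and 420 in wild type (log2 -1.45, -1.80 to -1.13), and no other member passed 1.5-fold. Among one-carbon and sulfur genes (31 genes, median -0.02) the abundant Gnmt was at 5525 against 5230 CPM and Bhmt at 5275 against 3746 CPM. Aldh4a1, of proline breakdown, was the lowest of its list at 221 against 400 CPM (log2 -0.85, -1.03 to -0.68).

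Among secreted proteins, the lists of carriers and complement had medians above 0 and the major urinary proteins a median below 0 under all 6 scalings, while that of coagulation ran from -0.03 to 0.19. The 45 features of plasma carriers and proteinase inhibitors had a median of 0.16, with 4 past 1.5-fold higher (8.89%, against 4.51%) and none lower. Of the 4, Serpina1e and Serpina3k are in the male-biased list, and Serpina3k passed under 3 of the 6 scalings. Ttr, the thyroxine and retinol carrier, was at 21103 against 14728 CPM (log2 0.52, 0.50 to 0.54). Serpina1e, a male-biased alpha-1-antitrypsin form, was at 6579 against 4018 CPM. Serpina7, the thyroxine-binding globulin, had 84 and 77 tags (log2 0.86, 0.40 to 1.33). Complement had a median of 0.28 over 30 features, with C6, also male-biased, at 153 against 83.5 CPM and Mbl2 at 141 against 213 CPM. The fibrinogen chains Fga, Fgb and Fgg had log2 ratios of 0.53, 0.40 and 0.34, and no coagulation gene passed 1.5-fold.

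Acute phase genes went in both directions. Of 23 features 7 were at least 1.5-fold higher (30.4%, against 4.51%) and 1 was lower (4.35%, against 7.1%), with a median of 0.17. Haptoglobin (Hp), which binds free haemoglobin, was at 6008 CPM in knockout and 2435 CPM in wild type (log2 1.30, 1.26 to 1.35). Lcn2, a siderophore-binding protein also made by neutrophils, had 157 against 111 tags (log2 1.24, 0.88 to 1.60). Orm2 had 268 against 153 tags (log2 1.54, 1.25 to 1.84), but 85% of the tags that name Orm2 lie in joint rows, and Orm1/Orm2 had a ratio of only 0.40.

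The serum amyloid genes lay on both sides of 0. Saa1 was at 894 against 536 CPM and Saa2 at 1579 against 1012 CPM, while Saa3, which macrophages make, had 8 tags in knockout and 55 in wild type (log2 -2.05, -3.33 to -0.97). Hepcidin (Hamp), the iron hormone, was lower at 2649 against 3792 CPM (log2 -0.52, -0.57 to -0.47). Its neighbour Hamp2 on chromosome 7, a female-biased gene, had 40 and 3437 tags (log2 -5.69, -6.18 to -5.24). The neutrophil markers S100a8 and S100a9, given because neutrophils make Lcn2, had 35 and 35 tags and 19 and 15 tags (log2 0.74 and 1.08). The part of neutrophils in the Lcn2 ratio was not tested.

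Major urinary proteins, pheromone carriers that male liver secretes in quantity, had a median of -0.31 over 26 features, 14 of them joint. Mup17 was at 221 against 513 CPM (log2 -1.22, -1.38 to -1.05) and Mup3 at 4148 against 5279 CPM, whereas Mup21 was at 269 against 105 CPM (log2 1.36, 1.15 to 1.58). These genes are near-identical copies, so the share of each is uncertain. Both Mup3 and Mup21 are in the male-biased list.

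The secretory machinery itself differed little. The median was 0.06 over 34 genes of translocation and glycosylation and 0.07 over 38 genes of transport from the endoplasmic reticulum to the Golgi. Sec24a, a coat protein of outbound vesicles, was the only machinery gene at 2-fold, with 30 and 100 tags (log2 -1.0, -1.64 to -0.40), and it held this under 4 of the 6 scalings. Ost4, a subunit of the oligosaccharyltransferase, was at 201 against 128 CPM (log2 0.65, 0.43 to 0.87).

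Of 31 genes of the unfolded protein response, 6 were at least 1.5-fold higher (19.4%, against 4.51%) and 1 was lower (3.23%, against 7.1%). The median was 0.08. Of the 6, Dnajb9 passed under all 6 scalings, Creld2, Manf and Syvn1 under 5, Wfs1 under 4 and Pdia4 under 3. Dnajb9, a reticulum co-chaperone, had 41 tags in knockout and 26 in wild type (log2 1.39, 0.65 to 2.16). Creld2 had 49 and 51 tags (log2 0.68, 0.08 to 1.27), and Wfs1 had 28 and 25 (log2 0.90, 0.07 to 1.74). The main chaperone Hspa5 was at 485 against 428 CPM (log2 0.18, 0.05 to 0.31), and Xbp1 had an interval from -0.06 to 0.79. Dnajc10, a reductase of the same compartment, was lower with 9 and 48 tags (log2 -1.68, -2.89 to -0.64).

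The integrated stress response could be read in only 8 of 29 genes, with a median of -0.13. Atf4, its transcription factor, was at 101 against 142 CPM (log2 -0.49, -0.76 to -0.23), and Ppp1r15b, a phosphatase subunit, had 37 and 112 tags. Ddit3 had 15 and 18 tags and Fgf21 had 1 and 1, too few for the minimum level. Among 32 heat shock and cytosolic chaperone genes (median 0.09) none was 1.5-fold higher and 2 were lower (6.25%, against 7.1%). These were the inducible Hspa1b, with 21 and 69 tags (log2 -0.98, -1.76 to -0.26), and the mitochondrial chaperonin Hspd1, at 160 against 249 CPM (log2 -0.63).

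Detoxifying and antioxidant genes lay mostly above 0, with 28 of 32 above 0 and a median of 0.22 (0.10 to 0.32 over scalings). Hmox1, which degrades haem, had 50 tags in knockout and 32 in wild type (log2 1.38, 0.71 to 2.07). The globin feature Hba-a1/Hba-a2 was at 1165 CPM in knockout and 594 CPM in wild type, and its part in the Hmox1 ratio was not tested. Gstm3 had 308 and 227 tags (log2 1.18, 0.92 to 1.43) and the abundant Gstm1 at 4548 against 3064 CPM. The joint feature Gm3776/Gsta1, named after its values were seen, had 89 and 29 tags. Mitochondrial Prdx3 was the only member 1.5-fold lower, at 70.4 against 106 CPM.

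Metallothioneins, small proteins that bind zinc and copper and that metals and glucocorticoids induce, were lower in the knockout. Mt1 was at 302 CPM in knockout and 1106 CPM in wild type (514 and 3141 tags, log2 -1.88, -2.01 to -1.74). Mt2 was at 133 against 555 CPM (226 and 1577 tags, log2 -2.07, -2.27 to -1.86). In cerebellum the log2 ratios were -0.13 for Mt1 and -0.21 for Mt2, and in hippocampus -0.29 and -0.38.

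Because Mt1 and Mt2 lie side by side on chromosome 8 and differed together, bases before the transcript start that the RefSeq promoter table takes for each are shown here (GRCm38.p6, plus strand), with the core of the metal response element in capitals (GTGTGCA is its reverse complement). The letters searched on both strands were TGCACNC and TGCGCNC, where N is any base. The Mt2 sequence holds 250 bases (chr8:94172368-94172617) and the Mt1 sequence 30 bases (chr8:94179059-94179088). The Mt1 gene record begins further upstream, at 94178883, so its printed bases lie inside that record.
Mt2: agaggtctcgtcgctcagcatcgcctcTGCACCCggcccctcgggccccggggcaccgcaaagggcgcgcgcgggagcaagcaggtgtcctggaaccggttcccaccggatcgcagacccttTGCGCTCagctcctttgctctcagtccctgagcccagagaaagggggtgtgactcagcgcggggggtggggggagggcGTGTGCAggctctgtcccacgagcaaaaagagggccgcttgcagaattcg
Mt1: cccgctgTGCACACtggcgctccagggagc
In the window from 250 bases before to 50 bases after the start, Mt2 had 4 such matches and Mt1 had 3. At least 3 matches occurred in 1.97% of 32851 promoter windows of that length, and at least 1 in 25.7%. A match is a description of the letters and says nothing of binding in these pools.

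The glucocorticoid and fasting list, which holds Mt1 and Mt2, had members in both directions. At 1.5-fold, 5 of 17 were higher (29.4%, against 4.51%) and 4 lower (23.5%, against 7.1%). The 4 lower were Mt1, Mt2, Fkbp5 and Lpin1, of which Mt1, Mt2 and Lpin1 are given above. Bcl6, a repressor that is male-biased in liver, had 62 tags in knockout and 21 in wild type (log2 2.30, 1.56 to 3.09). Cdkn1a, the cell cycle inhibitor p21, had 59 and 40 (log2 1.30, 0.69 to 1.91), whereas Fkbp5, a classical glucocorticoid target, had 17 and 61 (log2 -1.11, -1.98 to -0.31). Pck1, Igfbp1 and Lcn2, given above, belong to this list on the higher side.

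Immediate early genes had only 6 members above the minimum level, with a median of 0.55 that came to 0.18 over all 18 members when no minimum level was set. Zfp36, which destabilises inflammatory mRNAs, had 58 and 41 tags (log2 1.24, 0.63 to 1.85). Gadd45g, of the p53 list, had 73 and 60 tags (log2 1.02) and stayed past 2-fold under 3 of the 6 scalings. Among 22 interferon and antigen presentation genes 1 was higher and 1 lower at 1.5-fold (4.55% each, against 4.51% and 7.1% of all features), a share no larger than the background. These were Usp18, with 28 and 22 tags (log2 1.08, 0.23 to 1.96) and past 2-fold under 5 of the 6 scalings, and the immunoproteasome subunit Psmb8, with 56 and 208 tags (log2 -1.16, -1.61 to -0.73).

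**Figure D5:**
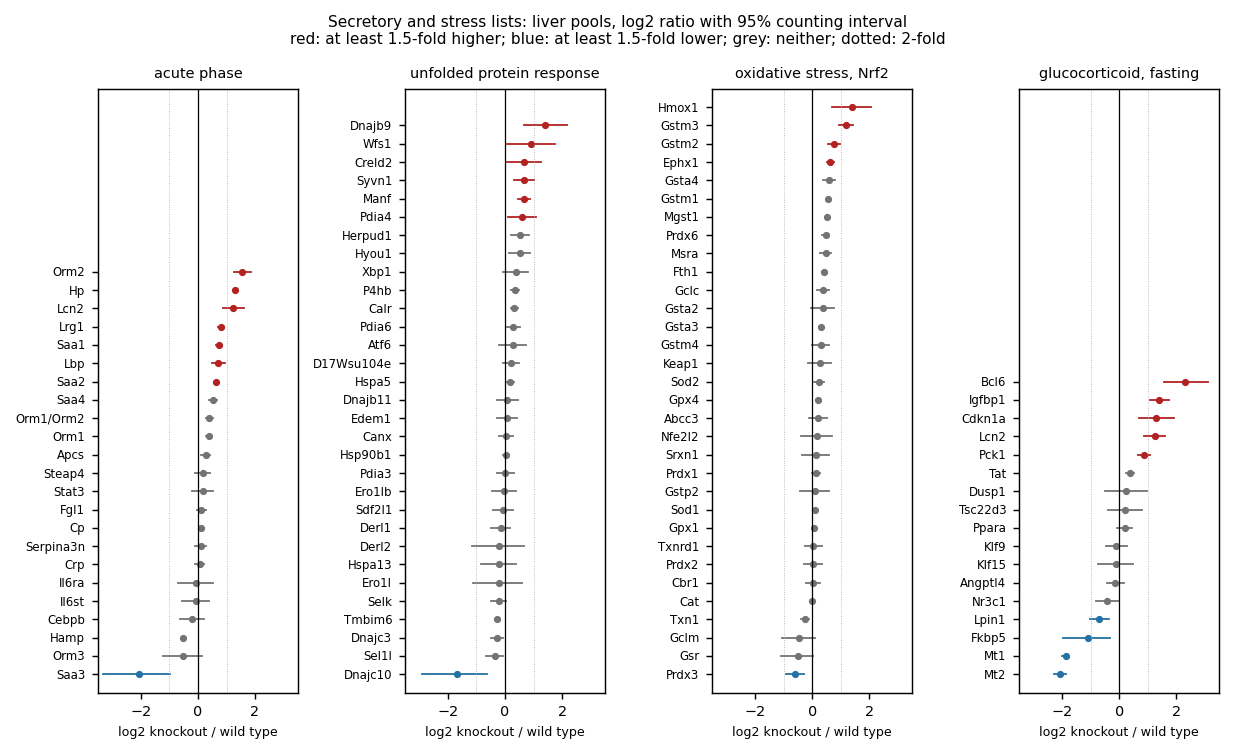
Log2 ratio with its 95% counting interval for each measured gene of the acute phase, unfolded protein response, oxidative stress and glucocorticoid lists. Hp, Orm2 and Lcn2 head the acute phase panel, Saa3 lies at -2.05, and Mt1 and Mt2 close the glucocorticoid panel at -1.88 and -2.07.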

How the data were processed

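Poly(A) RNA of pooled liver was profiled with MACE, a 3'-end tag method. The authors deposited raw counts of tags per RefSeq record and strand, per the file headers. The submitters' processing notes list CASAVA 1.8.2 and mm9, while the tables name GRCm38. For the aligner: not given in the sources used here. Sense counts were summed per symbol. Rows that name no gene (mitochondrial genome 10.6% and 9.36% of tags in knockout and wild type, other genomic 12.0% and 13.1%, unmatched 7.21% and 7.79%) stayed out. Scaling was TMM over the 2 libraries (edgeR 4.0.16, R 4.3.3). The other 5 scalings were library totals, DESeq2 1.42.0 size factors, upper quartile, totals without the 50 most abundant features and TMM over 6 libraries. A count of 0 was set to 3 tags. Named genes were Atxn2, core genes, the 10 highest and 10 lowest features outside predicted names, and of each list the 3 most abundant, highest and lowest members and all past 2-fold. Markers, joint features and genes said to be so were added after their values were seen. Some genes the rule took are not reported here. Members and lists were chosen with earlier results of these data known. The code for ratios and intervals was run on simulated counts that held counting error only, which says nothing of variation between animals or pools.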

Additional observations from a re-analysis of the deposited data

Results flagged for a closer look

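Haptoglobin (Hp) had a ratio above 0 in liver and below 0 in both brain tissues, with intervals that excluded equality in all 3. It was flagged because its liver ratio was also past 2-fold, and the reversal of sign was not particular to it. Fga, Bhmt and Serpina1e reversed in the same way, with liver log2 ratios of 0.53, 0.49 and 0.71. Apoa1 was below 0 in both brain tissues, but its liver interval included equality (-0.01 to 0.04). Hp had 10242 and 6914 tags in knockout and wild-type liver (log2 1.30), 34 and 55 in cerebellum (log2 -0.66, -1.32 to -0.02) and 17 and 120 in hippocampus (log2 -2.93, -3.76 to -2.19). Albumin (Alb), a liver transcript, had 578 and 1008 tags in cerebellum and 458 and 2465 in hippocampus, so it was lower in the knockout pool of both brain tissues too. Its part in the Hp values was not tested. With 1 pool per genotype and tissue the difference between tissues was not tested.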

How the results depend on the processing

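The counts of 73 higher and 173 lower features became 179 and 386 with no minimum level, 17 and 35 at a mean of at least 50 CPM, 295 and 464 at 1.5-fold and 13 and 49 at 3-fold. Other scalings, joint-row and strand rules kept both counts within 1.5 times. Over 36 lists, 458 of 465 recomputed medians stayed within the typical counting interval of a member. The exceptions were lipoproteins (-0.02 with library totals, -0.16 after a fit of GC content, length and abundance, which was chosen after seeing the data), fatty acid uptake at 50 CPM (0.32), the urea cycle with upper quartile (0.16), methionine to serine genes after that fit (-0.19), and plasma carriers with library totals (0.045) and after the fit (0.0286). Of the lists, 21 kept 1 sign over the 6 scalings. Of 329 features that the naming rule took, 39 changed sign in at least 1 alternative (70 of 2955 recomputed values). None of the 39 was past 2-fold, and 8 had an interval that excluded equality. In all, 186 values left their counting interval. The fit was not run for major urinary proteins, where under 80% of features had a transcript. No paired analysis was possible because each genotype has 1 pool, and no replicate could be left out. The median of immediate early genes was 0.18 with no minimum level and 0.33 without joint features. Depth limits genes with under 70 tags in either pool: their intervals spanned over 1 log2 unit in 88.2% of features, and in 0 features with at least 70 in both.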

Other observations

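Among features outside the lists, several of the highest in knockout liver were low-abundance transcripts. Nnat, an imprinted membrane proteolipid, had 101 tags in knockout and 36 in wild type (log2 2.22, 1.66 to 2.82). Tff3, a mucosal peptide in the cholangiocyte marker list, had 59 and 20 (log2 2.30, 1.54 to 3.11). Of the 3 measured features of that list, 1 was above 0 and 2 were below, with a median of -0.02. Lgals1, which encodes galectin-1, was more abundant, at 197 against 59.2 CPM with 335 and 168 tags (log2 1.73, 1.46 to 2.01). Anxa2 had 33 and 17 tags. The noncoding RNA Rn7sk, which lacks a poly(A) tail, had 53 and 14 tags.

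On the lower side, Alas1, the rate-limiting enzyme of hepatic haem synthesis, had 103 and 500 tags (log2 -1.54, -1.86 to -1.23). Car5a, a mitochondrial carbonic anhydrase, had 158 and 554 (log2 -1.07, -1.34 to -0.82), and Agmat, which hydrolyses agmatine, had 30 and 132. The cyclin gene Ccnd1 had 11 and 107 tags (log2 -2.55, -3.59 to -1.65). Alas1, Car5a, Agmat and Ccnd1 were picked after their values were seen.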
